A study of Mus musculus with 24 samples.

Results

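The genes for calprotectin, the stefins and neutrophil granule proteins were followed in mouse skin: S100a8, S100a9, Stfa2, Stfa3, Lcn2, Ngp and Camp. They were chosen by symbol, 7 genes in all, and 6 of them were measured among the 18193 genes that had a probe set with a single gene symbol. Stfa2 was not analysed here, since no probe set carried its symbol alone. Each measured gene had 1 probe set. The S100a8 probe set is of the type that may match more than 1 transcript, and the Stfa3 probe set may also bind near-identical stefin transcripts, so its values are read as stefin signal with that uncertainty.

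The study modelled systemic sclerosis by graft-versus-host disease and measured RNA of shaved dorsal scapular skin on Affymetrix arrays, 24 in all, in 6 groups of 4. All recipients were female RAG2-/- mice, which lack T and B cells of their own, so the syngeneic controls carried that deletion too. Syngeneic controls received Balb/c splenocytes, and the labels name no antibody for them. Allografted mice received B10.D2 splenocytes and either an isotype antibody or anti-IFNAR1, which binds the type I interferon receptor. Each of these 3 groups was sampled at day 14 and at day 28. No label states that the 4 arrays are 4 different mice, and none gives an age, so p-values measure only the spread between these arrays, which may be technical. The number of arrays limits the precision of every value.

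S100a8 and S100a9 encode the subunits of calprotectin, a calcium- and zinc-binding protein that makes up much of the neutrophil cytosol and is also made by keratinocytes under stress. The stefins inhibit cysteine cathepsins, and Lcn2 encodes lipocalin 2, which binds bacterial siderophores; both are found in myeloid cells and in inflamed epidermis. Ngp, neutrophilic granule protein, and Camp, the cathelicidin antimicrobial peptide, are packed into neutrophil granules, and their transcripts are made mainly while the cells mature in bone marrow. S100a8, S100a9, Stfa2, Stfa3 and Lcn2 are therefore described first, as the genes shared with stressed epidermis, and Ngp and Camp after them, as the granule genes.

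The promoter windows of 4 members are shown because C/EBP factors drive granule genes during neutrophil maturation, and the windows show which members of either kind hold a sequence of that type. Each window runs from 250 bases before to 50 after the start site, from RefSeq on GRCm38.p6, and all 7 members matched. The windows are chr3:90668821-90669120 on the plus strand for S100a8, chr3:90695672-90695971 on the minus strand for S100a9, chr2:32387690-32387989 on the minus strand for Lcn2 and chr9:110419558-110419857 on the plus strand for Ngp. Each is written 5′ to 3′ on the gene's strand, with motif matches in capitals.
S100a8: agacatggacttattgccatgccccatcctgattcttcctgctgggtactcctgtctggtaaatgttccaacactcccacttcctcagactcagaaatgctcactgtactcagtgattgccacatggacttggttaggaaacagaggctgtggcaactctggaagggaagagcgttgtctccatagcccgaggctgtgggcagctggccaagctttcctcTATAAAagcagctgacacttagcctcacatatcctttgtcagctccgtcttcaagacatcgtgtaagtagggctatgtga
S100a9: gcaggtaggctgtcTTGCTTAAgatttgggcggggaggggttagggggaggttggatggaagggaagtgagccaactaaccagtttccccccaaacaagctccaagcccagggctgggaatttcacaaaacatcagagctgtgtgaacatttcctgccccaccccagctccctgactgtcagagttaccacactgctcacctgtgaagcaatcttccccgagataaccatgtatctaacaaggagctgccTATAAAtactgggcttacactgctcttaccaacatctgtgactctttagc
Lcn2: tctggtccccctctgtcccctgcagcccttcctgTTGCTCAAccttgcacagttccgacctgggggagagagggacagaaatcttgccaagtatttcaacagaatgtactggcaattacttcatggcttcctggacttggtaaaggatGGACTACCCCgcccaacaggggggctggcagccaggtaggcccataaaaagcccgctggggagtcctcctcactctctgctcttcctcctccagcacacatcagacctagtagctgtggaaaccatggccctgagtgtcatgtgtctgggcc
Ngp: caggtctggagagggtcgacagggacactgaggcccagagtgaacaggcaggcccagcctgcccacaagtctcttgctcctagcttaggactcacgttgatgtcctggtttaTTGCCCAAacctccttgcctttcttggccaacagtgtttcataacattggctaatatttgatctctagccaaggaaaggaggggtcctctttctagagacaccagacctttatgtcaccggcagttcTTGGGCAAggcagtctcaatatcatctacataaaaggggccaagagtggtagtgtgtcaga

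Motifs were searched on both strands of the windows. The C/EBP motif TTNNGCAA was present in 3 of the 7 members' windows and in 10.8% of all 32851 windows of the same length. Ngp held it at 2 places, as TTGCCCAA with its first base at -138 and as TTGGGCAA at -11, while S100a9 held TTGCTTAA at -236 and Lcn2 held TTGCTCAA at -216. The window of Camp, the other granule gene, is not shown and held no match to it. The capitals in the S100a8 window mark TATAAA, which starts at -30 and is present in 13.6% of all windows. S100a9 also held it, but with its first base at 1, the annotated start site itself. The kappa B motif, GGG and CC with any 5 bases between, was present in the windows of Lcn2, Camp and Stfa2 and in 50.8% of all windows, and the 2 matches in Camp overlapped. The AP-1 motif TGANTCA was present in the Stfa3 window and in 7.81% of all windows. No member's window held the interferon-response motif, GAAA and GAAA with any 2 bases between, or the STAT motif TTCNNNGAA, present in 3.44% and 8.30% of all windows. The promoter windows of Stfa2 and Stfa3 were 83.7% identical over 295 aligned bases. These matches describe letters only.

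Values below are the deposited intensities, arbitrary brightness units whose array medians lay between 14.8 and 17.7. Tests were run on log2(intensity + 16) with limma over all genes and arrays, and a gene is called changed at a Benjamini-Hochberg adjusted p under 0.05. Fold changes are on that scale, which understates the change of a gene near or below the median. In whole skin, fewer cells of a type and less RNA per cell cannot be told apart. Keratinocyte markers such as Krt14 summed to between 86473 and 242788 on every array, and dermal fibroblast markers to at least 20762, as the label skin implies. The Gapdh 3′/5′ log2 ratio, a sign of RNA quality that rises as RNA degrades, was above 4 on 5 arrays. These were replicate 4 of the syngeneic day 14 group, replicates 3 and 4 of the anti-IFNAR1 day 14 group, replicate 3 of the syngeneic day 28 group and replicate 1 of the isotype day 28 group. The group mean was lowest for isotype day 14, at 1.34 (0.62 to 2.16), and highest for anti-IFNAR1 day 14, at 3.35 (2.13 to 4.81). The arrays compared between these antibodies at day 14 thus barely overlapped in this ratio.

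**Figure D1:**
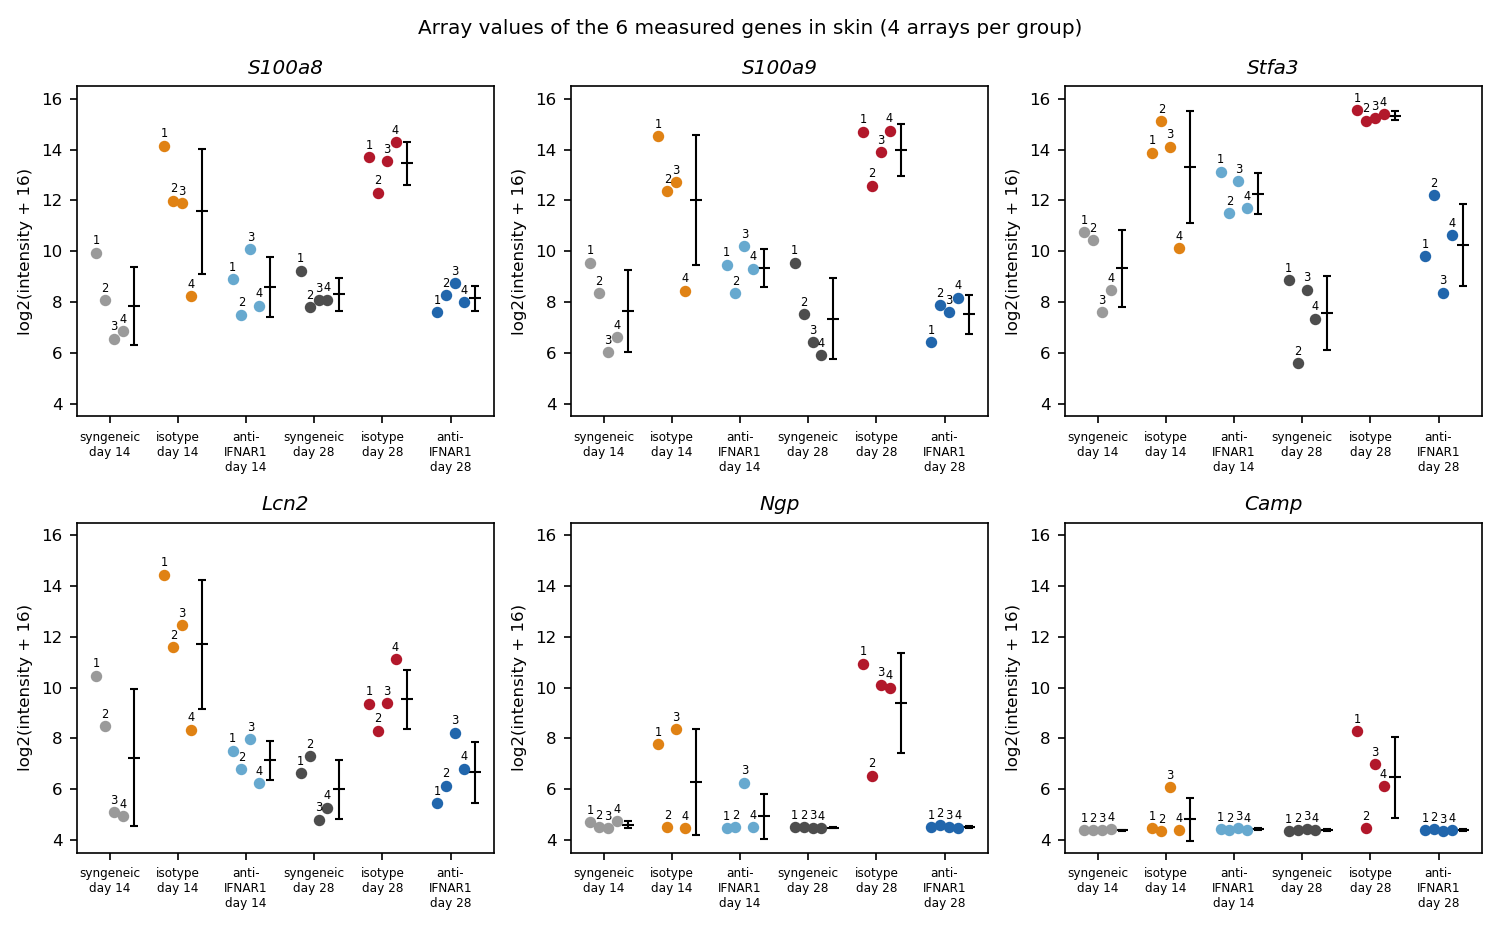
Values of the 6 measured genes as log2(intensity + 16) on each of the 24 arrays, by group; points are arrays numbered by replicate, and bars are the group mean ± SD. At day 28 all 4 isotype arrays lie above the syngeneic arrays for every gene, while at day 14 Ngp is raised on isotype replicates 1 and 3 and Camp on replicate 3.

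At day 14, the comparison of isotype-treated allografted skin with syngeneic skin asks what the allogeneic transfer changed early. All 4 measured genes shared with stressed epidermis rose, by 13.1-fold to 22.0-fold, and neither granule gene was called. Of all genes tested, 5.29% were called higher in this comparison.

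S100a8, a calprotectin subunit, read 18174, 4024, 3787 and 283 on isotype replicates 1 to 4, against 963, 253, 78.3 and 99.3 on the syngeneic arrays. S100a9, its partner, read 23621, 5274, 6738 and 332 against 728, 308, 49.1 and 81.8. Replicates 1 to 3 of the isotype group lay above every syngeneic array for both genes, and replicate 4 fell among the syngeneic values, so the groups overlapped. The log2 change was 3.71 ± 0.94 (SE, n = 4 arrays a group) for S100a8, with a limma adjusted p of 0.015. For S100a9 it was 4.39 ± 1.06, with a limma adjusted p of 0.011.

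Stfa3, stefin A3, read 15076, 35245, 17758 and 1085 on the isotype arrays and 1708, 1364, 179 and 340 on the syngeneic arrays. Lcn2 read 22210, 3086, 5563 and 309 on the isotype arrays and 1408, 342, 18.0 and 14.8 on the syngeneic arrays. The same isotype replicate 4 was the low array of both, and syngeneic replicates 1 and 2 were the high ones of their group. Stfa3 rose by 3.99 ± 1.0 on the log2 scale (limma adjusted p = 0.014) and Lcn2 by 4.46 ± 1.22 (limma adjusted p = 0.021).

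The granule genes differed from this. Ngp read 203, 6.60, 315 and 6.16 on the isotype arrays, against 6.12 to 10.7 on the syngeneic arrays. Camp read 6.05, 4.33, 51.7 and 4.81, against 4.77 to 5.40. Ngp was thus raised on isotype replicates 1 and 3 and Camp on replicate 3, and the rest were at or below the syngeneic level or within 1 intensity unit of it. The log2 difference was 1.68 ± 0.85 for Ngp (limma adjusted p = 0.21) and 0.43 ± 0.51 for Camp (limma adjusted p = 0.67). Isotype replicate 2, with Stfa3 at 35245 and S100a8 at 4024, had both granule genes at the syngeneic level.

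Isotype replicate 4 stood apart within its group. Krt16, a keratin of wounded epidermis, read 26462, 27928 and 28979 on replicates 1 to 3 and 580 on replicate 4. The 15 measured genes of the stressed epidermis list summed to 12014 on replicate 4 and to at least 133099 on the other three, against 6682 to 18072 on syngeneic arrays. Its macrophage marker sum of 87680 and its T cell marker sum of 5394 lay inside the range of the other isotype arrays and above all syngeneic arrays of that day. Without replicate 4, the log2 change was 4.82 for S100a8, 5.58 for S100a9, 5.05 for Stfa3 and 5.58 for Lcn2, all still called.

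These calls depended on single arrays and on the pooled spread. With only the arrays compared, or without the arrays of a Gapdh ratio above 4, none of the 4 was called, with adjusted p of 0.081 for S100a8, 0.069 for S100a9, 0.082 for Stfa3 and 0.12 for Lcn2 in the latter. S100a8 lost its call without syngeneic replicate 4 or isotype replicate 1, Stfa3 without isotype replicate 2, and Lcn2 without syngeneic replicates 3 or 4 or isotype replicates 1 or 3; S100a9 kept it whichever of the 8 arrays was left out.

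At day 28 the isotype-treated allografted skin was above syngeneic skin for all 6 measured genes on every array. S100a8, S100a9, Stfa3, Ngp and Camp rose, and Lcn2 missed the threshold. Over all genes, 6.66% were called higher and 8.09% had isotype arrays all above syngeneic arrays. The members' median log2 difference was 5.03, against -0.00 over all genes.

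S100a8 read 13228, 5037, 11818 and 20167 on the isotype arrays and 587, 208, 252 and 255 on the syngeneic arrays. The change was 35.7-fold, or 5.16 ± 0.94 on the log2 scale (limma adjusted p = 0.00090). S100a9 read 26688, 6115, 15139 and 27290 against 728, 166, 69.3 and 44.3. Replicate 2 was the lowest isotype array for both subunits, yet still above every syngeneic array. S100a9 rose 99.2-fold, by 6.63 ± 1.06 (limma adjusted p = 0.00030).

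Stfa3 read 47643, 36107, 38297 and 43070 on the isotype arrays and 449, 32.2, 341 and 146 on the syngeneic arrays. Its SD over the isotype arrays was 0.18 on the log2 scale, the smallest of the 6 genes, and it rose 216-fold, by 7.76 ± 1.0 (limma adjusted p = 5.5e-05). Lcn2 read 647, 301, 656 and 2191 against 82.4, 142, 11.9 and 22.6. Its groups did not overlap, and its log2 difference of 3.55 ± 1.22 had a limma adjusted p of 0.053. With only the arrays compared, the adjusted p of Lcn2 was 0.032. Across 10 alternative settings it was called in 4, with adjusted p up to 0.20, and in 0 of the 8 fits with an array left out.

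Both granule genes rose at day 28. Ngp read 1956, 76.6, 1092 and 1003 on the isotype arrays, while every syngeneic array read between 6.08 and 6.60. Camp read 296, 6.14, 111 and 53.0, against 4.23 to 5.85. Replicate 2 was the low isotype array for both genes, and for Camp it exceeded the highest syngeneic array by less than 1 intensity unit. Ngp rose 30.1-fold, by 4.91 ± 0.85 (limma adjusted p = 0.00057), and Camp 4.21-fold, by 2.08 ± 0.51 (limma adjusted p = 0.0084). With an offset of 1 the log2 change of Ngp was 6.43. Camp was not called with only the arrays compared (adjusted p = 0.14) or without the arrays of a Gapdh ratio above 4 (log2 change 1.49, adjusted p = 0.077), and its log2 change was 3.34 with an offset of 1.

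Isotype replicate 2 of day 28 was the lowest array of its group for all 6 measured genes, with Ngp still above every syngeneic array. It read 36107 for Stfa3, where the next isotype array read 38297, and 5037 for S100a8, where the next read 11818. Its Krt16 read 38978, inside the range of 31119 to 71248 over the isotype arrays. Mpo, which encodes myeloperoxidase of the primary granules, read 21.6, 4.79, 44.0 and 46.1 on isotype replicates 1 to 4 and between 4.64 and 4.93 on the other 20 arrays of the series. Elane, neutrophil elastase, read 8.79, 4.76, 7.27 and 5.94 on the isotype arrays and at most 5.01 elsewhere. Both transcripts were above the level of the other arrays on the same 3 arrays that had Ngp at 1003 or more, though every Elane value was below the array median.

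**Figure D2:**
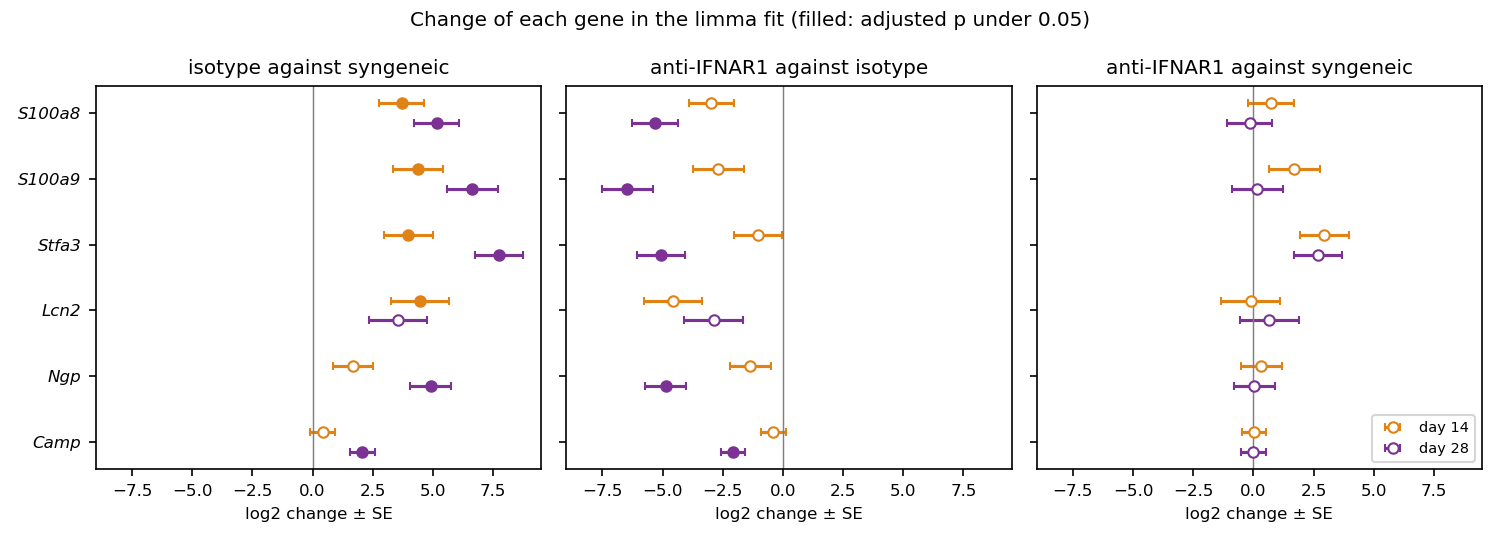
Log2 change ± SE of each measured gene in the limma fit (horizontal axis) for the 3 comparisons within each day; filled points have an adjusted p under 0.05. At day 28 every gene but Lcn2 is filled on the right for isotype against syngeneic and on the left for anti-IFNAR1 against isotype, and no point is filled for anti-IFNAR1 against syngeneic.

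A direct test asked whether the shared genes changed more than the granule genes, by taking the log2 difference of the genes on each array and comparing isotype with syngeneic arrays. None of the 16 differences passed the two-sided exact permutation test after Benjamini-Hochberg adjustment, and 4 had an unadjusted p under 0.05. With 4 arrays a group, a pass would have needed most of the 16 to reach the smallest possible p. The lack of a pass therefore does not show that the genes changed alike. At day 28 the rise of Stfa3 exceeded that of Ngp by 2.85 and that of Camp by 5.68 log2 units, and those of S100a8 and S100a9 exceeded that of Camp by 3.08 and 4.56. Each had an exact p of 0.0286, the smallest that 70 orderings of 4 against 4 arrays can give, and an adjusted p of 0.11. S100a8 and Ngp differed by 0.25 at day 28 (exact p = 0.77). Ngp and Camp were below the array medians in syngeneic skin, so the size of these differences depends on the offset. With an offset of 1, Stfa3 exceeded Ngp by 1.52 and Camp by 4.61 at day 28, S100a8 exceeded Camp by 1.89 and S100a9 exceeded Camp by 3.5, and S100a8 less Ngp turned to -1.20. Of the 16, only Stfa3 less Camp at day 28 then had an unadjusted exact p under 0.05, and none passed after adjustment (adjusted p of at least 0.29). At day 14 the differences ran from 2.03 to 4.03, with exact p from 0.0571 to 0.23.

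**Figure D3:**
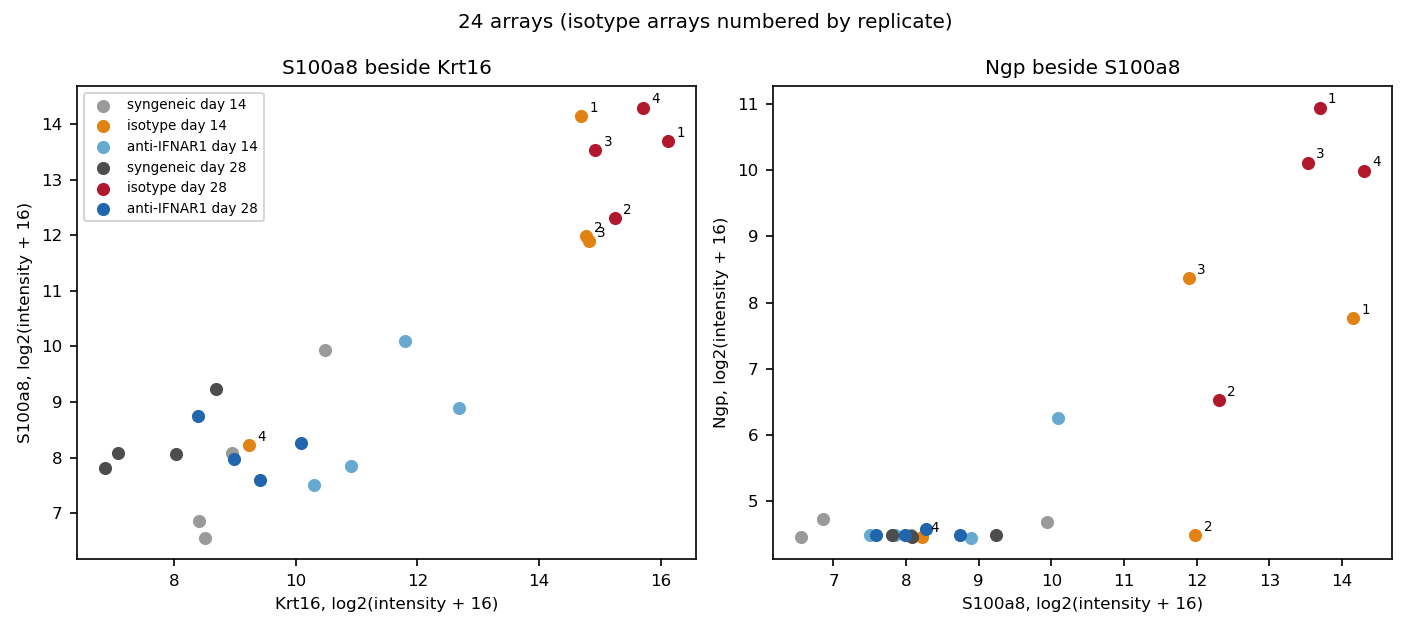
S100a8 against Krt16 (left) and Ngp against S100a8 (right), each as log2(intensity + 16), with 1 point per array and isotype arrays numbered by replicate. Isotype replicate 4 of day 14 lies among the syngeneic arrays in both plots, and isotype replicate 2 of day 14 has S100a8 at 11.98 with Ngp at 4.50.

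Blocking the type I interferon receptor was compared with the isotype antibody in allografted skin. At day 28 S100a8, S100a9, Stfa3, Ngp and Camp were lower with anti-IFNAR1, and all 6 genes had every anti-IFNAR1 array below every isotype array. Over all genes, 4.89% were called lower and 6.85% had arrays entirely below. The isotype arrays are those of the comparison with syngeneic skin, so these changes are not independent of those above.

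S100a8 read 177, 293, 413 and 237 with anti-IFNAR1, which was 39.7-fold lower than with isotype, a change of -5.31 ± 0.94 (limma adjusted p = 0.0012). S100a9 read 69.0, 218, 178 and 272, 88.4-fold lower, a change of -6.47 ± 1.06 (limma adjusted p = 0.00068). Both subunits were thus at most 413 on all 4 arrays, where the isotype arrays read at least 5037. Stfa3 read 871, 4727, 312 and 1567 and changed by -5.08 ± 1.0 (limma adjusted p = 0.0024). Lcn2 read 27.9, 54.6, 284 and 96.1, with a difference of -2.89 ± 1.22 (limma adjusted p = 0.13). Replicate 2 was the highest anti-IFNAR1 array for Stfa3 and replicate 3 for Lcn2, and the latter lay just below the lowest isotype array, which read 301.

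Ngp read 6.63, 7.94, 6.57 and 6.51 with anti-IFNAR1 at day 28, and Camp read 4.93, 5.46, 4.2 and 4.82. Every Camp value, and every Ngp value but that of replicate 2, lay within 1 intensity unit of the syngeneic day 28 range. The change was -4.88 ± 0.85 for Ngp (limma adjusted p = 0.0011; -6.34 with an offset of 1) and -2.08 ± 0.51 for Camp (limma adjusted p = 0.010). Camp lost this call with only the arrays compared (adjusted p = 0.16) or without the arrays of a Gapdh ratio above 4 (adjusted p = 0.066), and its change was -3.36 with an offset of 1.

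At day 14 none of the 6 genes was called between anti-IFNAR1 and isotype, where 0.813% of all genes were called. By unadjusted p under 0.05, 3 of the 6 and 3075 of all genes differed. S100a8 read 459, 165, 1074 and 215 with anti-IFNAR1, a difference of -2.98 ± 0.94 (limma adjusted p = 0.12), and S100a9 read 688, 310, 1162 and 620, a difference of -2.68 ± 1.06 (limma adjusted p = 0.21). Isotype replicate 4, the array with little wound keratin, lay inside the anti-IFNAR1 range for both. Stfa3 read 8930, 2854, 6861 and 3312, a difference of -1.04 ± 1.0 (limma adjusted p = 0.66).

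Lcn2 at day 14 read 167, 95.4, 236 and 59.9 with anti-IFNAR1, below all 4 isotype arrays; 7.51% of all genes were lower without overlap. Its difference was -4.57 ± 1.22 (limma adjusted p = 0.074). Ngp read 5.94, 6.56, 60.5 and 6.64 and Camp 4.78 to 6.09, so Ngp was raised on replicate 3 and Camp on none. Without isotype replicate 4, 3 of the genes were called lower: Lcn2 by -5.69, S100a8 by -4.09 and S100a9 by -3.88. Without the dimmest 25% of genes, Lcn2 had an adjusted p of 0.049.

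Anti-IFNAR1-treated allografted skin was also set against syngeneic skin. None of the 6 genes was called at either day, where 1.12% of all genes were called at day 14 and 0.033% at day 28. By unadjusted p under 0.05, Stfa3 alone of the 6 differed at each day, among 2610 genes at day 14 and 370 at day 28. Stfa3 was 2.95 higher on the log2 scale at day 14 (95% interval 0.85 to 5.05, limma adjusted p = 0.16), with every anti-IFNAR1 array above every syngeneic array; 1.62% of all genes were higher without overlap. At day 28 it was 2.68 higher (0.58 to 4.78, limma adjusted p = 1.0), with groups that overlapped. The day 28 intervals were -2.13 to 1.82 for S100a8, -2.05 to 2.38 for S100a9, -1.89 to 3.21 for Lcn2, -1.75 to 1.81 for Ngp and -1.08 to 1.07 for Camp. A p that misses the threshold does not show that the groups were alike, and these intervals hold changes of 1 log2 unit or more either way.

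Between day 14 and day 28 of isotype treatment, no member was called, where 2.2% of all genes were; by unadjusted p under 0.05, Ngp and Camp differed, as did 2668 of all genes. Ngp was 3.12 ± 0.85 higher at day 28 (limma adjusted p = 0.062) and Camp 1.64 ± 0.51 (limma adjusted p = 0.11). Lcn2 had the other sign, at -2.16 ± 1.22 (limma adjusted p = 0.44), with 22210 on the highest day 14 array and 2191 on the highest day 28 array. Without isotype day 14 replicate 3, or without isotype day 28 replicate 2, Ngp and Camp were both called. The change of the isotype-against-syngeneic difference from day 14 to day 28 was not called for any member (0.044% of all genes called; unadjusted p under 0.05 for 3 of the 6 and 1775 of all genes), and was largest for Stfa3 at 3.77 ± 1.42 and Ngp at 3.23 ± 1.20 (limma adjusted p = 0.38 for each). The same change for anti-IFNAR1 against isotype was -3.53 ± 1.20 for Ngp (limma adjusted p = 0.19) and -4.04 ± 1.42 for Stfa3 (limma adjusted p = 0.21), with 0.0715% of all genes called and with an unadjusted p under 0.05 for 4 of the 6 and 2468 of all genes. Neither the syngeneic nor the anti-IFNAR1 group had a called member between days, where 0.077% and 0.555% of all genes were called, and none of the 6 had an unadjusted limma p under 0.05. S100a9 was lower on every anti-IFNAR1 array of day 28 than on those of day 14, as were 4.05% of all genes, with a difference of -1.82 ± 1.06 (limma adjusted p = 0.50).

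By mean log2 level, isotype day 28 was the highest group for S100a8, S100a9, Stfa3, Ngp and Camp, and isotype day 14 was the next. For S100a8 the means were 13.46 ± 0.84 (SD, n = 4) and 11.56 ± 2.46, followed by anti-IFNAR1 day 14 at 8.58 ± 1.16, syngeneic day 28 at 8.30 ± 0.64, anti-IFNAR1 day 28 at 8.15 ± 0.49 and syngeneic day 14 at 7.85 ± 1.53. Lcn2 alone of the 6 had isotype day 14 on top, at 11.71 ± 2.54, with isotype day 28 at 9.55 ± 1.16. Camp lay between 4.38 and 4.42 in all 4 groups outside the isotype antibody, against 6.46 ± 1.60 at isotype day 28. Neighbours in these orders overlapped, except that Stfa3 at isotype day 28 (15.33 ± 0.18) lay above every isotype day 14 array (13.30 ± 2.20); 3.09% of all genes did so.

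Other neutrophil granule genes were called mainly at day 28, as were Ngp and Camp. Against syngeneic skin, 1 of 14 measured was called higher at day 14 and 8 at day 28, and 7 fell with anti-IFNAR1 at day 28. Between day 14 and day 28 of isotype treatment 4 of the 14 rose, Mpo, Ctsg, Mmp9 and Cd177. For the change of the isotype-against-syngeneic difference between days limma called 0 of 14, and 6 had an unadjusted p under 0.05. The day 14 gene was Hp, haptoglobin, at 1.85 ± 0.47 (limma adjusted p = 0.015). At day 28 Chil3, a chitinase-like protein that macrophages also make, rose by 6.07 ± 1.36, Mmp9, a gelatinase, by 3.14 ± 0.46, and Pglyrp1, a peptidoglycan-binding granule protein, by 1.75 ± 0.28. Mpo rose by 0.99 ± 0.21 (limma adjusted p = 0.0028), although replicate 2 overlapped the syngeneic arrays, and Elane, also among the 8, by 0.12 ± 0.03. Ltf, lactoferrin, was not called, with 550, 20.5, 348 and 226 on the isotype arrays of day 28 and a difference of 2.21 ± 1.13 (limma adjusted p = 0.23). Ltf also read 426 on anti-IFNAR1 replicate 3 of day 14, the array with Ngp at 60.5, and 521 on anti-IFNAR1 replicate 3 of day 28, where Ngp read 6.57.

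Genes of mature neutrophils were called at both days. Of 12 measured, 6 rose at day 14 and 10 at day 28 against syngeneic skin, and 2 fell at day 14 and 10 at day 28 with anti-IFNAR1. Clec4d, a C-type lectin receptor that macrophages also carry, rose by 4.25 ± 0.65 at day 14 and 5.42 ± 0.65 at day 28. Fpr2, a formyl peptide receptor, rose by 4.04 ± 0.62 and 4.81 ± 0.62. Csf3r, the G-CSF receptor, rose by 1.44 ± 0.35 at day 14 without overlap (limma adjusted p = 0.012) and by 1.67 ± 0.35 at day 28 (limma adjusted p = 0.0029). Cxcr2, the neutrophil chemokine receptor, read 45.3, 54.0, 50.7 and 17.4 on isotype day 14 arrays, where syngeneic arrays read 17.7 to 20.6, and rose by 0.66 ± 0.19 (limma adjusted p = 0.026). Its low array was again replicate 4, unlike that of Csf3r, which read 204, 203, 622 and 416 on isotype day 14 replicates 1 to 4. Ltf, of the granule list, read 136, 9.93, 174 and 476 on these arrays, with replicate 4 the highest. Ly6g, the usual marker of mouse neutrophils, was not analysed here.

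Macrophage and monocyte markers rose too, and they share several of these transcripts. Of 11 measured, 9 rose at day 14 and 8 at day 28 against syngeneic skin, and 1 and 4 fell with anti-IFNAR1. Their summed intensity ran from 14903 to 41016 on syngeneic day 14 arrays, 82605 to 95833 on isotype day 14 arrays and 28311 to 70680 on isotype day 28 arrays. Syngeneic day 28 arrays ran from 9035 to 26429. Anti-IFNAR1 arrays ran from 47551 to 66508 at day 14 and from 17881 to 34178 at day 28. Their part in the members' changes was not tested.

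Genes of stressed epidermis moved on the same arrays as S100a8, S100a9 and Stfa3. Of 15 measured, 9 rose at day 14 and 12 at day 28 against syngeneic skin, with median log2 differences of 2.33 and 3.65, and 11 fell at day 28 with anti-IFNAR1. At day 14 none was called with anti-IFNAR1 by limma, and 7 had an unadjusted p under 0.05. Krt16 rose by 4.30 ± 0.95 at day 14 and 7.84 ± 0.95 at day 28, and changed by -6.29 ± 0.95 with anti-IFNAR1 at day 28. Krt6b, another wound keratin, rose by 8.56 ± 1.69 at day 28 and Sprr1b, a cornified envelope precursor, by 8.41 ± 1.35. Krt6a rose by 2.82 ± 0.58 and 3.58 ± 0.58. The list summed to between 148601 and 277454 on isotype day 28 arrays and to at most 27534 on anti-IFNAR1 day 28 arrays. Its part in the members' changes was not tested. 

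**Figure D4:**
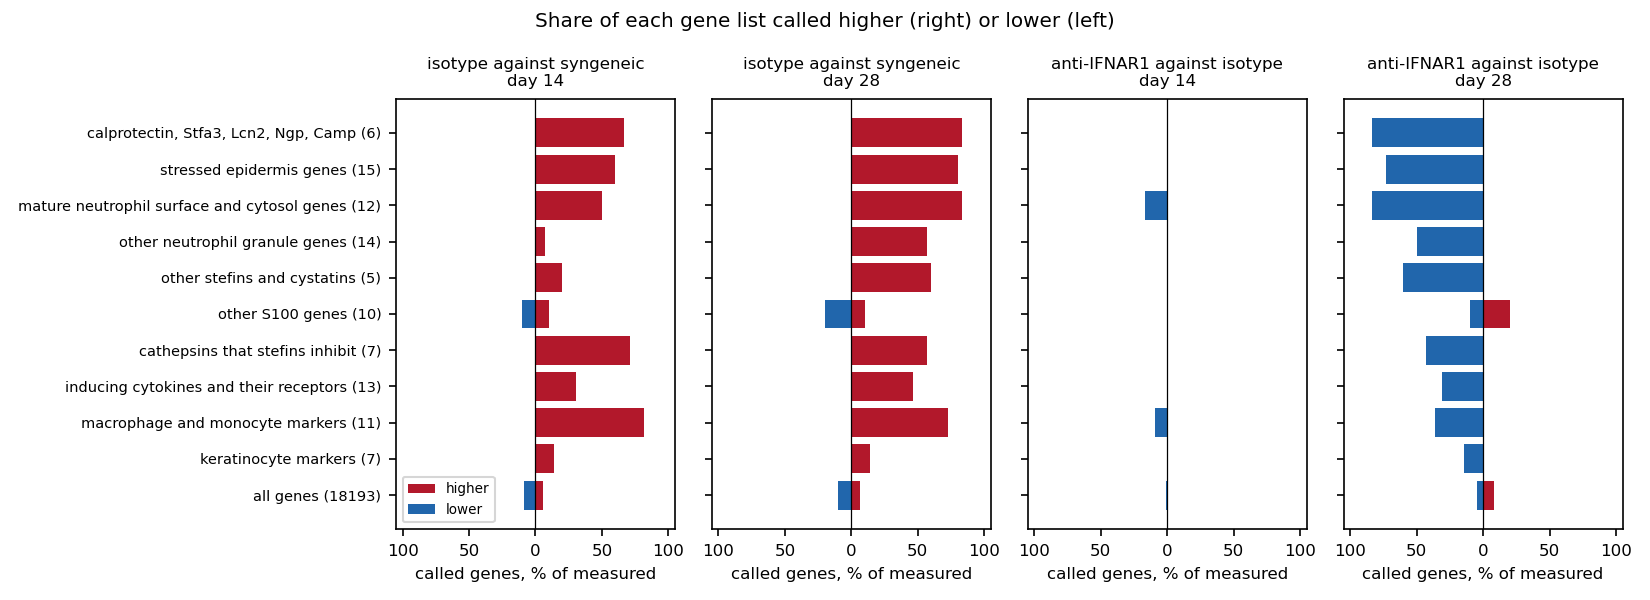
Percent of the measured genes of each list (number in brackets) called higher, to the right, or lower, to the left, at each day, for isotype against syngeneic and for blocked against isotype skin; bars start at 0. Of the other neutrophil granule genes, 1 of 14 was called higher in isotype skin at day 14 and 8 of 14 at day 28.

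T cell markers rose at both days, 6 of 7 against syngeneic skin, and 2 fell at day 14 and 6 at day 28 with anti-IFNAR1. Of the keratinocyte markers 1 of 7 rose at each day, and of the fibroblast markers 1 of 6 fell. No red cell marker was called by limma or had an unadjusted p under 0.05 in isotype against syngeneic skin at either day, and 1 of 7 eosinophil and mast cell markers fell at day 14. Of 14 hair follicle markers, 2 fell at day 28, with list sums of 2788 to 103396 on syngeneic day 28 arrays and 269 to 6447 on isotype day 28 arrays. Of all 18193 genes, 1510 were called lower in isotype against syngeneic skin at day 14 and 1762 at day 28. The part of these lists in the members' changes was not tested.

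Beside Stfa3, 5 other stefins and cystatins were measured: the stefins Stfa2l1, Csta1 and Cstb and the related cystatins Cst3 and Cst6. Of these, 1 rose at day 14 and 3 at day 28, and those of day 28 were Stfa2l1, Csta1 and Cstb. Stfa2l1, a stefin A2-like gene, read 11042, 9897, 7980 and 15128 on isotype day 28 arrays and at most 171 on syngeneic day 28 arrays. It rose by 3.0 ± 0.76 at day 14 and 6.5 ± 0.76 at day 28 (limma adjusted p = 2.4e-05), and changed by -6.73 ± 0.76 with anti-IFNAR1 at day 28. Csta1 rose by 1.89 ± 0.22 and Cstb, the cytosolic stefin B, by 0.80 ± 0.17 at day 28. Of the cysteine cathepsins that stefins inhibit, 5 of 7 rose at day 14 and 4 of 7 at day 28, among them Ctss of antigen-presenting cells, by 1.70 ± 0.33 and 2.98 ± 0.33.

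Other S100 genes did not follow calprotectin as a group. Of 10 measured, 1 rose and 1 fell at day 14, and 1 rose and 2 fell at day 28, against syngeneic skin. Over all 18193 genes, 962 rose and 1510 fell at day 14, and 1211 rose and 1762 fell at day 28. S100a4, expressed by motile and myeloid cells, rose by 0.81 ± 0.25 and 0.90 ± 0.25. S100b changed by -0.76 ± 0.23 and -1.21 ± 0.23, and S100a1, a muscle and heart S100 protein, by -1.42 ± 0.26 at day 28.

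Upstream genes were called in part. The list held inducing cytokines, their receptors and the transcriptional regulators Nfkbiz, Cebpb and Cebpd. Of its 13 measured genes, 4 rose at day 14 and 6 at day 28, and 4 fell with anti-IFNAR1 at day 28. Il1b, interleukin 1 beta, rose by 2.37 ± 0.73 at day 14 and 4.98 ± 0.73 at day 28, and changed by -5.13 ± 0.73 with anti-IFNAR1 at day 28. Tnf rose by 2.13 ± 0.32 at day 28. Csf3, the G-CSF that drives neutrophil output, read 573 on isotype day 14 replicate 1, the array with the highest S100a8 and Lcn2 of its group, and at most 6.63 on the other three, and was not called (1.23 ± 0.70, limma adjusted p = 0.27).

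Among receptors for the member proteins, 1 of 7 rose at day 14 and 2 of 7 fell at day 28 in isotype against syngeneic skin. Over all 18193 genes, 962 rose at day 14 and 1762 fell at day 28. Tlr4, a receptor for calprotectin, rose by 2.11 ± 0.55 at day 14. Cd36, a scavenger receptor that binds calprotectin with fatty acid, changed by -1.97 ± 0.49 at day 28, and Slc22a17, the lipocalin 2 receptor, by -0.63 ± 0.18. Of 4 measured transcription factors of granule genes, Spi1, which encodes PU.1, rose by 1.10 ± 0.29 at day 14 and 1.30 ± 0.29 at day 28 and no other was called.

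The genes whose levels most resembled S100a8 over the 24 arrays, by Pearson r of log2 values outside the members, were Pmaip1 (0.955), Il1b (0.949), Sprr2d (0.945), Mmp13 (0.944) and Gpr35 (0.943). For Ngp they were Lce3a (0.918), Smim3 (0.915), Lce3c (0.903), Sprr2i (0.902) and Sprr2f (0.898). Among members, S100a8 had r of 0.964 with S100a9, 0.821 with Stfa3, 0.816 with Lcn2, 0.860 with Ngp and 0.663 with Camp. With the group means removed, these were 0.911, 0.660, 0.876, 0.565 and 0.180. Ngp and Camp had r of 0.902, and 0.770 with the group means removed. Spearman's rho lay between 0.792 and 0.922 for the 5 genes most like S100a8 and between 0.609 and 0.708 for those most like Ngp. All arrays share the group differences above, so these values are descriptions over 24 points that fall into 6 groups.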

How the data were processed

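RNA of mouse skin was hybridised to Affymetrix arrays, 24 in 6 groups of 4. The authors deposited 1 intensity per probe set and array, on a linear scale from 1.68 to 92640; the summary method, background correction and scaling are not given in the sources used here. Per the labels, total RNA was extracted from frozen skin. Of 45101 probe sets, 64 controls were left out, 34945 had 1 gene symbol, 932 several and 9160 none listed. The platform annotation was updated through RefSeq for 34741 of them. The brightest probe set stood for each of 18193 genes. Intensities were turned into log2(intensity + 16) and fitted with limma 3.58.1 (R 4.3.3), a mean for each group over all 24 arrays, with 18 residual degrees of freedom, and Benjamini-Hochberg adjustment over all genes. Differences between genes were tested by exact permutation over all orderings of the arrays, with Benjamini-Hochberg adjustment by scipy 1.17.1. The procedure was tested on simulated data. No arrays were identical, and no batch or scan date was used.

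The members, gene lists and tests were chosen with earlier results of these data known. Named genes were all members; at most 4 called genes with the largest change per list and within-day comparison; Ly6g, Csf3r, Cxcr2, Elane, Mpo, Ltf, Krt6a, Krt16 and Csf3 whatever their values; and the 5 genes most correlated with S100a8 and with Ngp. Hair follicle, red cell, eosinophil and mast cell, and T cell lists were counted too. Alternatives changed the offset, normalization, dim-gene filter, probe set choice, arrays fitted, prior, replicate block, Gapdh ratio and each array in turn; an exact permutation test per gene was added after seeing the data.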

Additional observations from a re-analysis of the deposited data

Results flagged for a closer look

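In 3 of the 36 combinations of a measured gene and a group of 4 arrays, 1 array stood far from the other three; chance gives about 1 in 20. Ngp read 60.5 on replicate 3 of the anti-IFNAR1 day 14 group, against 5.94 to 6.64 on the others. Camp read 51.7 on replicate 3 of the isotype day 14 group, against 4.33 to 6.05. Ngp read 7.94 on replicate 2 of the anti-IFNAR1 day 28 group, against 6.51 to 6.63, with all 4 values below the array medians.

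A probe set annotated to several genes of the stefin cluster was outside the comparisons, since it names no single gene. Its median intensity was 22858 in the isotype day 14 group, where the highest syngeneic array read 2280, and 46066 in the isotype day 28 group, where the highest syngeneic array read 709. Its medians with anti-IFNAR1 were 3821 at day 14 and 975 at day 28.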

How the results depend on the processing

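For isotype against syngeneic skin at day 14, 4 members were called; 0 were called with only the arrays compared, and 0 without the 5 arrays of a Gapdh 3′/5′ ratio above 4. Leaving out each array in turn gave 2 to 4, with 2 without syngeneic replicate 4 and without isotype replicate 1. For anti-IFNAR1 against isotype at day 14 the count went from 0 to 1 without the dimmest 25% of genes, and ran from 0 to 3 with each array left out. For isotype day 28 against day 14 it went from 0 to 1 without that 25%, and ran from 0 to 2. For isotype against syngeneic at day 28 and anti-IFNAR1 against isotype at day 28, 5 were called whichever array was left out. The cause of these shifts was not tested, beyond fewer genes or fewer arrays fitted.

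Signs turned only for differences that were not called. For anti-IFNAR1 against syngeneic skin at day 14, Lcn2 read 0.17 with an offset of 1 (-0.88 to 0.96 with an array left out). Ngp there read -0.0761 without the arrays of a high Gapdh ratio (-0.11 to 0.49), and Camp -0.0303 with that ratio as a covariate. For anti-IFNAR1 against syngeneic skin at day 28, S100a9 read -0.14 without the arrays of a high Gapdh ratio (-0.31 to 0.90). Camp there read 0.0198 with the ratio as a covariate and 0.0162 without those arrays (-0.0208 to 0.0162), and S100a8 ran from -0.35 to 0.16. Camp in anti-IFNAR1 against isotype at day 14 ran from -0.56 to 0.0203.

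Replicate numbers are shared by groups, but same-numbered arrays did not deviate together: 17 of 60 pairs had r over 0.1 (median -0.03). With the replicate number as a block, 4 members were called for isotype against syngeneic at day 14 and 5 at day 28. With 4 arrays a group, the exact permutation test per gene cannot go below 0.0286. After adjustment over the 36 tests its smallest p was 0.0735, so no member passed in any comparison within a day. For isotype against syngeneic at day 14 the unadjusted exact p was 0.0571 for S100a8 and S100a9 and 0.0857 for Stfa3 and Lcn2. Signal near background limits Ngp and Camp: in syngeneic skin all their values lay below the array medians.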
